A study of Mus musculus with 24 samples.

Results

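The genes described here are 30 genes of cholesterol synthesis and of sterol sensing and transport, most of them known targets of the transcription factor SREBP2, in livers and hearts of mice with and without PPARα. They were chosen by name, with earlier results of these data known, so counts over them are descriptions. They are given in pathway order, and each was read from its brightest single-gene probe set over all arrays. Of the 30, 29 were measured among 18193 genes on the arrays. Acat2, the cytosolic thiolase of the first step, had no probe set assigned to it alone and was not analysed here.

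PPARα, a receptor activated by fatty acids, drives genes that burn them, and the question of the series was how its loss changes liver and heart in each sex. Wild-type (WT) and PPARα knock-out (KO) mice of strain SV129, 12 of each sex and genotype and 10 to 12 weeks old, were sampled at zeitgeber time 14, in the dark phase of a usual light cycle. RNA of 4 animals was pooled for each array, with 3 pools in each of 8 groups: male WT (pools 1 to 3), male KO (pools 4 to 6), female WT (pools 7 to 9) and female KO (pools 10 to 12), in liver and in heart. No treatment was named for any group, and the knock-out allele is not described in the sources used here. Values are log2 intensities from Affymetrix mouse arrays, ± gives the SD over 3 pools, and a gene is said to rise or fall where limma, adjusted over all genes, gave a p under 0.05. Each pool averages 4 animals, so the spread between pools tends to be smaller than that between animals. Arrays of whole tissue cannot tell fewer cells of a type from less RNA per cell.

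Cells make cholesterol from acetyl-CoA by way of mevalonate, the isoprenoid farnesyl diphosphate, squalene and lanosterol, and the liver is a main site of this synthesis. When sterols in the endoplasmic reticulum are low, the escort protein SCAP carries SREBP2 to the Golgi, where it is cleaved, and the freed part enters the nucleus and raises transcription of nearly every enzyme of the route. When sterols are high, INSIG proteins hold SCAP and SREBP2 back.

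SREBP2 binds sterol response elements in promoters, usually beside sites for the factors NF-Y and Sp1. The upstream sequence is shown for 4 genes that rose in female KO liver. These are Hmgcs1 and Mvk of the mevalonate pathway, Msmo1 of the steps after lanosterol, and Tmem97. Control by SREBP2 is usually exerted through such upstream stretches. The sequences are from RefSeq on build GRCm38.p6, and each is the 250 bases before the annotated start, 5′ to 3′ on the gene's own strand. Hmgcs1 lies at chr13:119690101-119690350 (plus strand), Mvk at chr5:114444019-114444268 (plus strand), Msmo1 at chr8:64733579-64733828 (minus strand) and Tmem97 at chr11:78550736-78550985 (minus strand). Capitals mark the sterol response element TCACNCCAC and the NF-Y box CCAAT, which reads ATTGG where it lies on the other strand.
Hmgcs1: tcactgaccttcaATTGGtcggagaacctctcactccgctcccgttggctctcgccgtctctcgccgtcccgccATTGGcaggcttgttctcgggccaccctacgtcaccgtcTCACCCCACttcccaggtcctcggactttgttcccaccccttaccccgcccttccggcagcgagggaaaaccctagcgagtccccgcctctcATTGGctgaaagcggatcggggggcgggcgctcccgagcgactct
Mvk: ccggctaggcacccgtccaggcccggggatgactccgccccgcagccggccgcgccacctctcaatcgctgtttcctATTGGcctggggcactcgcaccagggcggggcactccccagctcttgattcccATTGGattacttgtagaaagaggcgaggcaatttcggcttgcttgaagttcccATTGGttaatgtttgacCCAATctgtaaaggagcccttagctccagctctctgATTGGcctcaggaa
Msmo1: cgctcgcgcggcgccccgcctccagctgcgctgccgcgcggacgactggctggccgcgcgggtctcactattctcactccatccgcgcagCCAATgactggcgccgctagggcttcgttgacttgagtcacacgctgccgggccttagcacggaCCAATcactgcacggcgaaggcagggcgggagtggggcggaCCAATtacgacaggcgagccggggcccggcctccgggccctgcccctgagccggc
Tmem97: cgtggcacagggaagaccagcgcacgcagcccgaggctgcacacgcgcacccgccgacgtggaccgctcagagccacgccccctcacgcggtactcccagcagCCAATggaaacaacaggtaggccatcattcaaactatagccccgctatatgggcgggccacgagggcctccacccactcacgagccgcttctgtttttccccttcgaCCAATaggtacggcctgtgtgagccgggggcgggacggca

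Windows of 300 bases, 250 before and 50 after the start, were found for 25 of the 30 genes, and not for Fdps, Fdft1, Sqle, Stard4 and Npc1. The NF-Y box was in at least 1 window of 23 of the 25 genes, all but Acat2 and Scap, against 37.4% of all 32851 promoters and 41.1% of all 27025 genes of the table. The Sp1 box GGGCGG was in 22 of 25, all but Pmvk, Ggps1 and Npc1l1, against 35.7% of promoters and 38.2% of genes. The strict sterol response element was found in 1 gene, Hmgcs1, as TCACCCCAC with its first base at position -137 from the start, against 1.24% of promoters and 1.44% of genes. All 3 motifs were searched on both strands and none contains another. Mvk held 5 NF-Y boxes in the printed stretch, and Hmgcs1 and Msmo1 held 3 each. A match in letters is not a bound site, and a window without one says only that these letters are not there.

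Liver and heart arrays carried their tissue's markers: the mean of 9 hepatocyte markers lay between 11.99 and 12.14 in every liver pool and that of 10 cardiomyocyte markers between 12.34 and 12.46 in every heart pool. Ppara itself was lower in all 3 KO pools than in all 3 WT pools of each tissue and sex and fell by 1.05 in female liver, 1.12 in male liver, 1.53 in female heart and 1.25 in male heart on the log2 scale (limma adjusted p from 0.000196 to 0.00131). Where its probes lie relative to the deletion was not known. Some arrays stood apart on the heart side. KO female pool 10 had a hepatocyte marker mean of 3.98 where the other hearts had at most 3.22. KO male pool 4 had a skeletal muscle marker mean of 4.70 where the others had at most 4.01. KO male pool 6 had a proliferation marker mean of 3.73 where the others had at most 2.94. Its lymphocyte marker mean was 3.39 where the others had at most 3.15. Heart results are therefore also given without pools 4 and 10 together, while pool 6 was left out only on its own. Among liver arrays, pool 12 of the female KO group had the lowest correlation with the other pools of its group (r = 0.98783 across genes, range over liver arrays up to 0.99461).

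In female liver, loss of PPARα went with more RNA for 3 of 6 enzymes of the mevalonate pathway, 2 of 3 that make squalene and lanosterol, and 3 of 9 that turn lanosterol into cholesterol. Hsd17b7, Ebp, Sc5d and Dhcr7 of the last steps did not pass. Of the 29 genes, 9 rose and 0 fell, where 0.363% of all genes rose and 0.451% fell. The genes that rose were Hmgcs1, Mvk, Idi1, Fdft1, Sqle, Cyp51, Msmo1, Nsdhl and Tmem97, by 1.74-fold to 2.98-fold. Differences were positive in 25 of 29, with a median of 0.54 against -0.0015 over all genes. In 15 genes every KO pool lay above every WT pool and in 3 every KO pool lay below, against 5.18% and 5.21% of all genes. Counted alone, the 19 measured enzymes from Hmgcs1 to Dhcr7 had positive differences in 18 and a median of 0.88, and 8 of them rose.

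**Figure D1:**
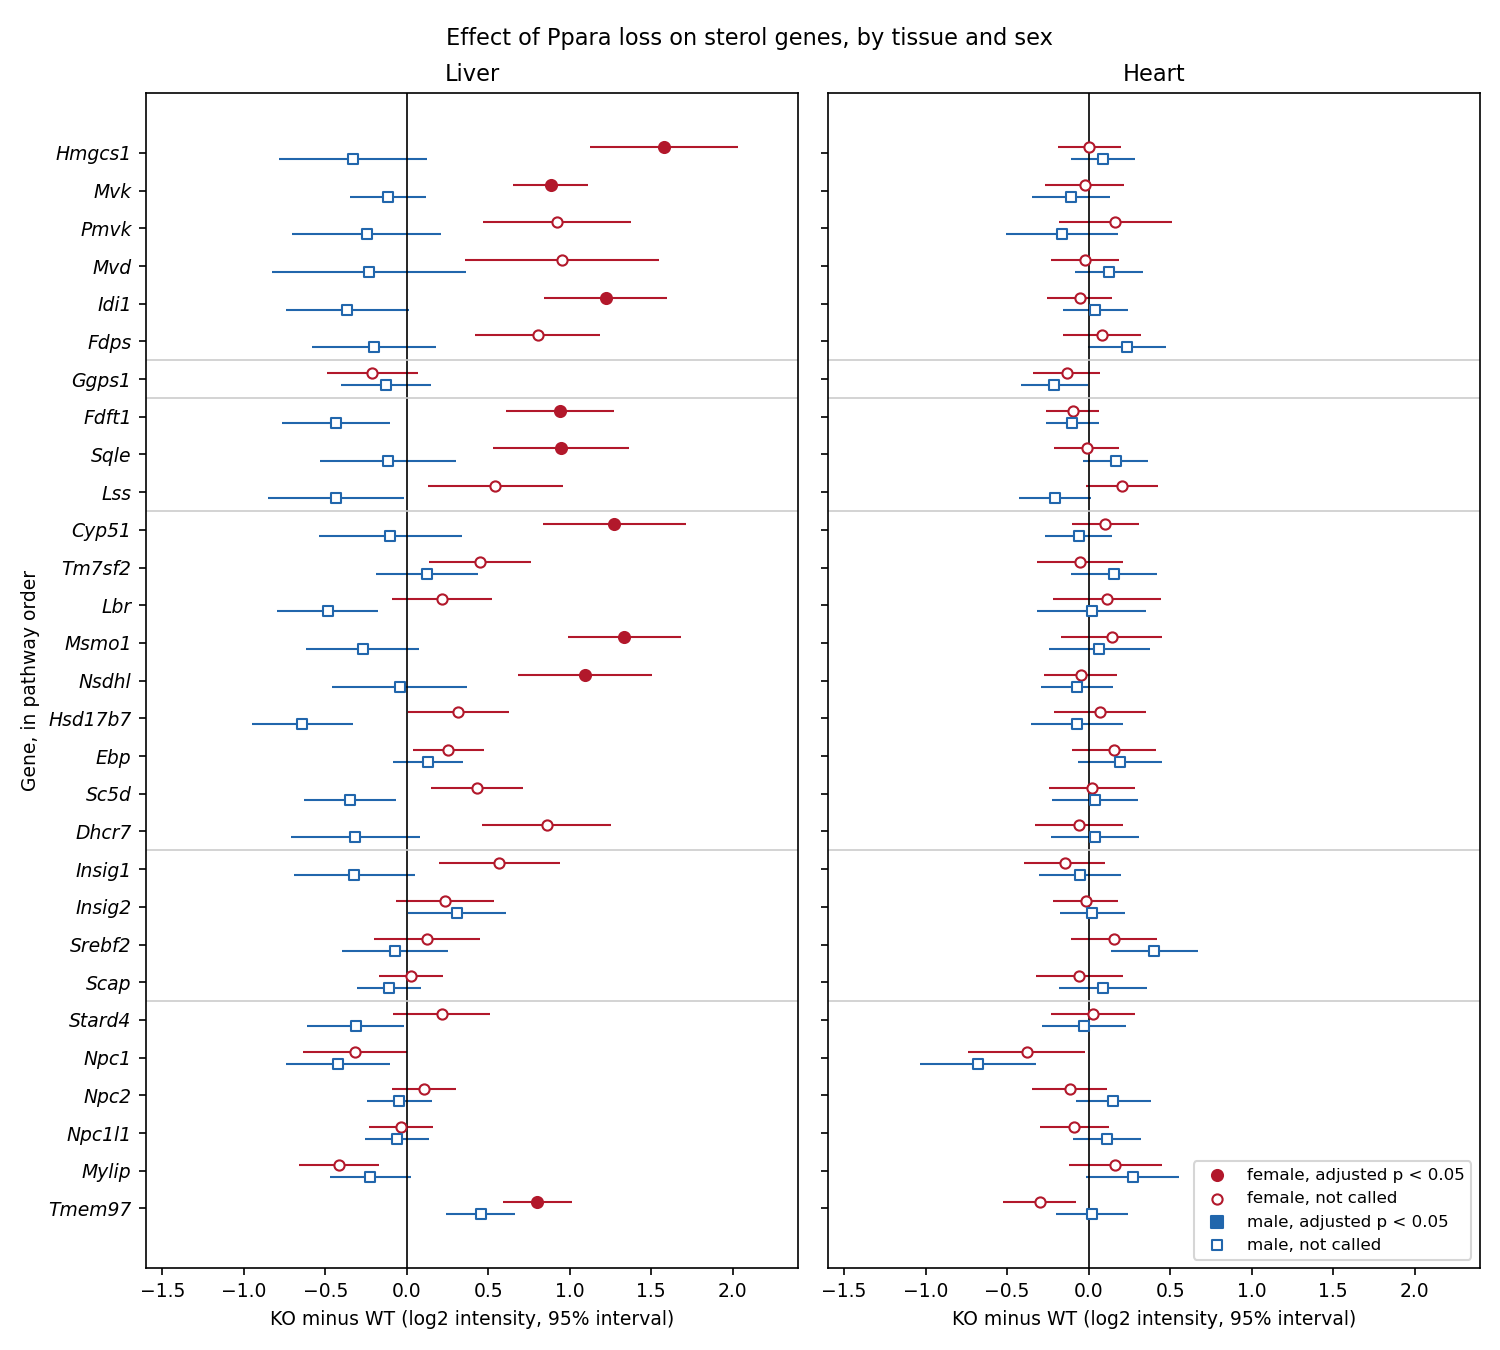
KO minus WT difference (log2 intensity, x axis) of the 29 measured sterol genes in pathway order (y axis) in liver (left) and heart (right). Circles are females, squares are males, bars are 95% intervals of the limma fit and filled symbols passed an adjusted p of 0.05. The 9 filled symbols are all female liver, and heart differences lie between -0.68 and 0.40.

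The early steps, from acetyl-CoA units to farnesyl diphosphate, were positive in all 6 measured enzymes, and 3 rose. Hmgcs1, the cytosolic synthase that makes HMG-CoA, read 8.87, 8.69 and 9.33 in female WT pools 7 to 9 and 10.66, 10.55 and 10.41 in KO pools 10 to 12. The lowest KO pool was above the highest WT pool, and the rise was 2.98-fold (log2 difference 1.58, SE 0.21, limma adjusted p = 0.00167). Mvk, the mevalonate kinase, read 4.91, 5.11 and 5.22 in WT and 6.08, 5.93 and 5.87 in KO pools. Its groups did not overlap, and it rose 1.84-fold (0.88, SE 0.11, limma adjusted p = 0.000875). Idi1, the isomerase that interconverts both building blocks of isoprenoids, read 7.07, 7.30 and 7.41 in WT and 8.65, 8.62 and 8.16 in KO pools. It rose 2.33-fold (1.22, SE 0.17, limma adjusted p = 0.003), with pool 12 the lowest KO pool but still above all WT pools.

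The other 3 early enzymes did not pass. Pmvk, the next kinase of the route, had 5.50, 5.50 and 5.29 in WT and 6.75, 6.56 and 5.74 in KO pools, all KO pools above all WT pools (0.92, SE 0.21, limma adjusted p = 0.0788). Fdps, which makes farnesyl diphosphate, had 8.49, 8.67 and 9.06 against 9.51, 9.73 and 9.38, also with no overlap (0.80, SE 0.18, limma adjusted p = 0.0621). Mvd, the mevalonate diphosphate decarboxylase, overlapped because WT pool 9 read 4.91 where pools 7 and 8 read 3.75 and 3.64. Its KO pools read 4.89, 5.11 and 5.17, and the difference of 0.95 (SE 0.28) had an adjusted p of 0.232 in limma. Ggps1, which leads farnesyl diphosphate away to geranylgeranyl diphosphate, was the 1 enzyme with a negative difference (-0.21, SE 0.13, limma adjusted p = 0.888), close to the median intensity of liver arrays, 2.45.

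Of the enzymes that commit farnesyl diphosphate to sterols, Fdft1 and Sqle rose. Fdft1, the squalene synthase, read 7.20, 7.35 and 7.79 in female WT and 8.36, 8.48 and 8.32 in KO pools. All KO pools were higher, by 1.92-fold on average (0.94, SE 0.15, limma adjusted p = 0.00902). Sqle, the squalene epoxidase and a rate-limiting enzyme of the later route, read 6.63, 6.95 and 7.35 in WT and 8.03, 8.07 and 7.66 in KO pools. Its rise of 1.93-fold was the closest of the 9 to the threshold (0.95, SE 0.19, limma adjusted p = 0.0417). Lss, which closes squalene epoxide to lanosterol, overlapped between the groups, with WT pool 9 at 6.20 and KO pool 12 at 6.0 (0.54, SE 0.19, limma adjusted p = 0.424).

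From lanosterol to cholesterol all 9 enzymes had positive differences, and Cyp51, Msmo1 and Nsdhl, which take part in stripping methyl groups off lanosterol, rose. Cyp51, the lanosterol demethylase, read 5.49, 5.75 and 6.14 in female WT and 7.52, 6.91 and 6.78 in KO pools. Pool 10 was the highest, the groups were apart, and the rise was 2.42-fold (1.27, SE 0.20, limma adjusted p = 0.00743). Msmo1, the methylsterol monooxygenase, read 8.32, 8.20 and 8.67 in WT and 9.66, 9.75 and 9.78 in KO pools. The KO pools lay within a narrow band above all WT pools, 2.52-fold higher (1.33, SE 0.16, limma adjusted p = 0.00083). Nsdhl, the dehydrogenase that acts after Msmo1, read 7.32, 7.89 and 7.92 in WT and 8.81, 8.99 and 8.61 in KO pools. It rose 2.13-fold with no overlap (1.09, SE 0.19, limma adjusted p = 0.0154).

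Dhcr7, which carries out the last reduction to cholesterol, read 7.68, 7.59 and 7.58 in female WT and 8.50, 8.88 and 8.05 in KO pools. Every KO pool was above every WT pool, but the KO pools were spread and the difference of 0.86 (SE 0.18) had an adjusted p of 0.0533 in limma. The remaining 5 enzymes had smaller differences that did not pass. These were 0.45 for Tm7sf2 and 0.22 for Lbr, both sterol reductases, 0.32 for Hsd17b7, the ketoreductase that follows Nsdhl, 0.26 for Ebp, a sterol isomerase, and 0.43 for Sc5d, a sterol desaturase, with limma adjusted p from 0.27 to 0.909. In Tm7sf2 and Sc5d the KO pools all lay above the WT pools, and in the other 3 they overlapped.

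**Figure D2:**
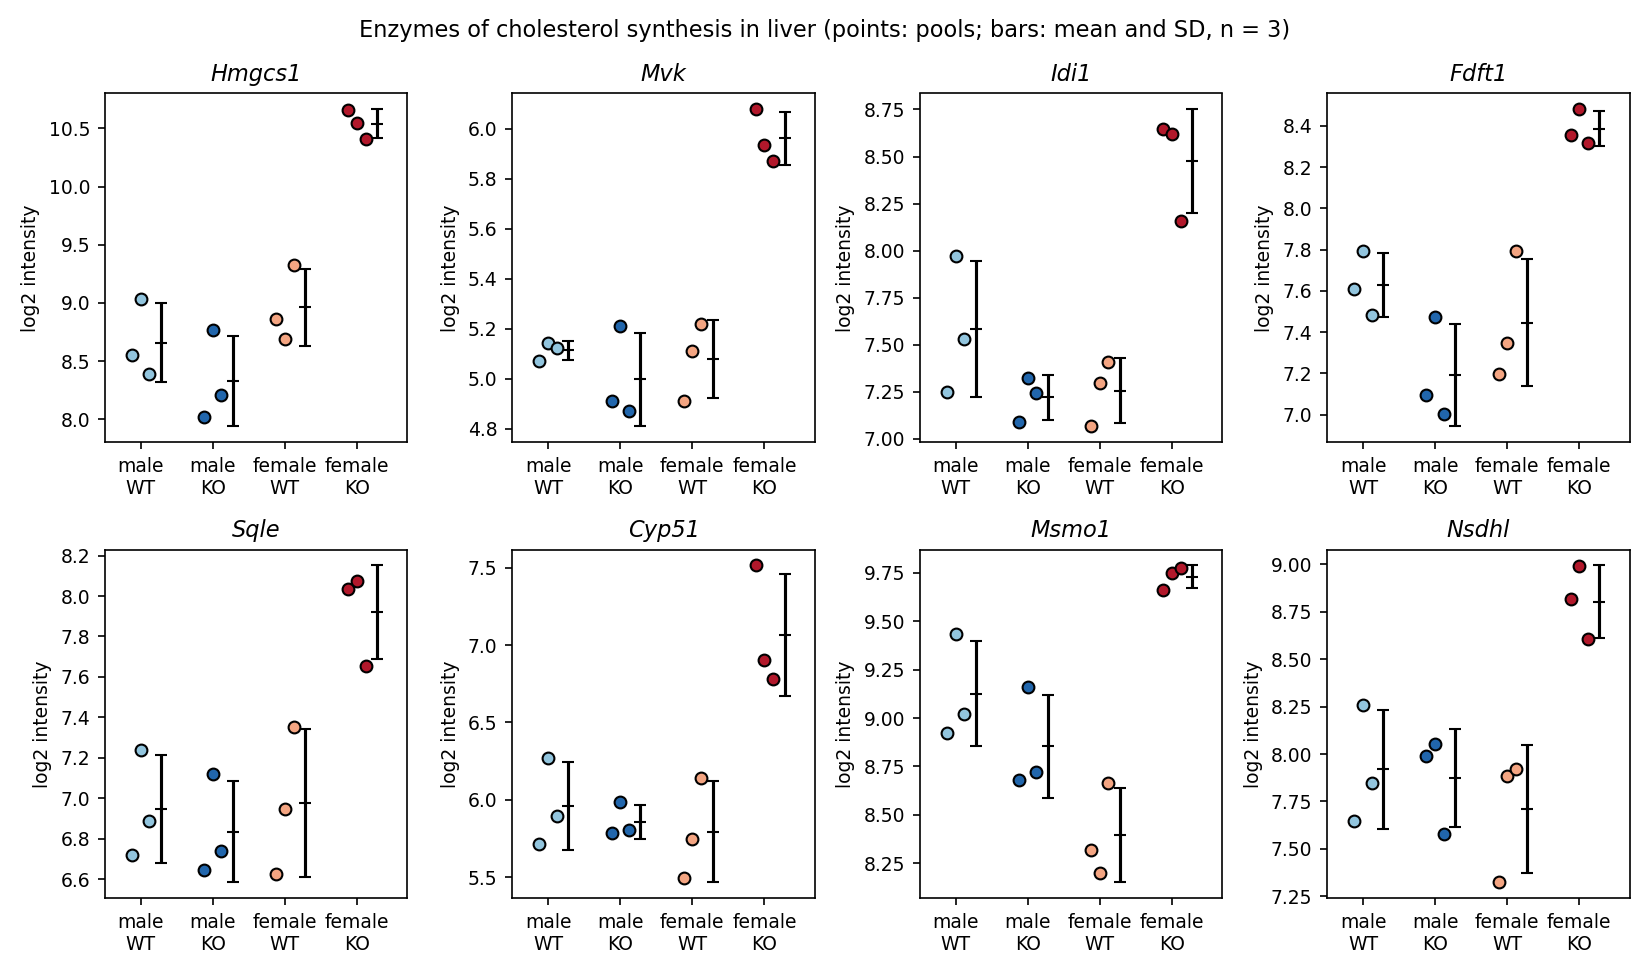
Log2 intensity (y axis) of 8 synthesis enzymes in each liver pool, grouped by sex and genotype (x axis). Points are pools, bars are the mean and SD of 3 pools, and y axes differ between panels and do not start at 0. In each panel the 3 female KO pools lie above the 3 female WT pools, and male KO pools do not lie above male WT pools.

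Genes of the sterol sensor itself did not pass in female liver, 0 of 4. At an unadjusted p under 0.05 in limma 1 was higher, against 630 of all 18193 genes. Insig1, a retention protein that is also a sensitive SREBP2 target, read 7.08, 6.93 and 7.51 in WT and 7.64, 7.95 and 7.62 in KO pools. The groups did not overlap, and the difference was 0.57 (SE 0.17, limma adjusted p = 0.274). Insig2, the second retention protein, differed by 0.24 (SE 0.14, limma adjusted p = 0.873). Srebf2, the gene of SREBP2, differed by 0.12 (SE 0.15, limma adjusted p = 0.993), with KO pool 10 at 5.20 and the other KO pools at 4.70 and 4.54, around the WT pools at 4.65, 4.72 and 4.69. Scap, the escort, differed by 0.03, and the 95% interval, from -0.17 to 0.22, excluded a rise as large as that of any of the 9 called genes.

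Among 6 genes of sterol transport and uptake, Tmem97 rose and the others did not pass. Tmem97, a membrane protein of the endoplasmic reticulum that binds NPC1, read 7.49, 7.33 and 7.22 in female WT and 8.10, 8.23 and 8.11 in KO pools. It rose 1.74-fold with no overlap and with little spread (0.80, SE 0.10, limma adjusted p = 0.000958). Npc1, which exports cholesterol from lysosomes, read 5.69, 5.31 and 5.22 in WT and 5.01, 5.09 and 5.17 in KO pools, all KO pools below (-0.32, SE 0.15, limma adjusted p = 0.726). Mylip, a ubiquitin ligase that marks lipoprotein receptors for degradation and a target of the oxysterol receptor LXR, read 4.62, 4.57 and 4.73 in WT and 4.14, 4.41 and 4.12 in KO pools. All KO pools were again lower, but the difference did not pass (-0.42, SE 0.11, limma adjusted p = 0.184). Stard4, a cytosolic sterol carrier, Npc2, the lysosomal partner of NPC1, and Npc1l1, a sterol uptake protein, differed by 0.21, 0.11 and -0.04, and Npc1l1 lay under the median intensity of liver arrays.

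Which of the 9 genes passed depended in part on single pools. Hmgcs1, Mvk, Idi1, Msmo1 and Tmem97 passed in all 15 alternative settings. Sqle was lost without pool 7, 8, 10 or 11, Fdft1 without pool 7, 8 or 11, and Nsdhl without pool 7 or 11. With the 6 female liver arrays fitted alone, 5 of the 9 passed.

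Within a group, these genes moved together from pool to pool. In female KO liver, pool 12 was the lowest of the 3 pools for 22 of 29 genes, against 40.8% of all genes, and among WT females pool 9 was the highest for 18 of 29, against 31.9%. In males, WT pool 2 was the highest for 18 of 29, against 32.1%, and KO pool 5 for 16 of 29, against 32.1%. The genes are thus not independent of each other within a pool. The SD between pools of a group of the genes' median level was 0.17 in liver and 0.12 in heart. No marker list had a gene called in female KO against WT liver apart from Csrp3 of the cardiomyocyte list, which fell by 0.87 on the log2 scale. In the macrophage and Kupffer list 7 of 8 differences were positive and 0 passed (median 0.30), its mean level was 4.60 to 5.33 in WT and 5.05 to 5.30 in KO pools, and its part in the results above was not tested.

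**Figure D3:**
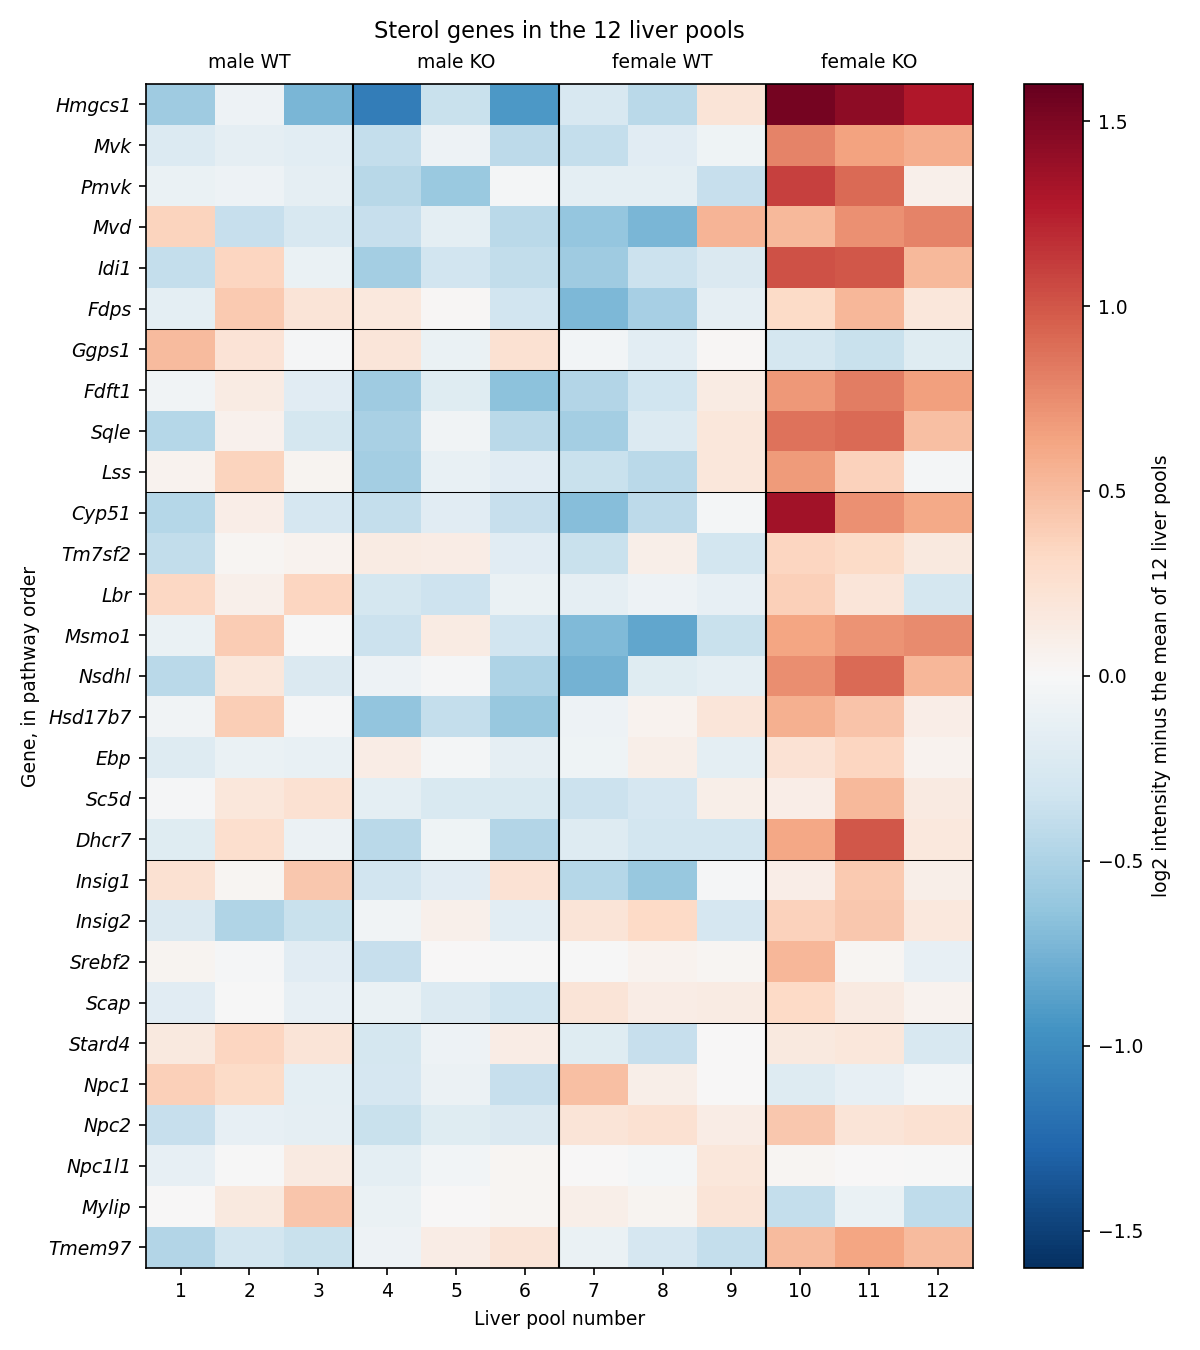
Log2 intensity of each sterol gene (y axis, pathway order) in each of the 12 liver pools (x axis), minus that gene's mean over the 12 pools, on a colour scale from -1.6 to 1.6. Lines separate the 4 groups and the roles; the female KO pools 10 to 12 are high for most enzymes, pool 12 least so, while male KO pools are near or under the male WT pools.

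In male liver these genes did not rise or fall with loss of PPARα. In limma 0 of 29 passed in either direction, where 0.17% of all genes rose and 0.434% fell. At an unadjusted p under 0.05 in limma, 2 were higher and 7 lower, against 769 and 822 of all 18193 genes. Differences were negative in 25 of 29, with a median of -0.22 against 0.011 over all genes. Every KO pool lay above every WT pool in 2 genes, against 8.62% of all genes, and below in 6, against 8.09%.

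Hmgcs1 read 8.56, 9.04 and 8.39 in male WT and 8.02, 8.76 and 8.21 in KO pools, which overlapped. Its difference of -0.33 had a 95% interval from -0.79 to 0.12 (limma adjusted p = 0.701), whose upper end lies well below the female value of 1.58. Msmo1 read 8.92, 9.43 and 9.02 in WT and 8.68, 9.16 and 8.72 in KO pools, with overlap (-0.27, SE 0.16, limma adjusted p = 0.669). Fdft1 had 7.61, 7.79 and 7.48 against 7.10, 7.47 and 7.0, all KO pools below all WT pools (-0.44, SE 0.15, limma adjusted p = 0.413).

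The most negative difference in male liver was that of Hsd17b7, which read 6.71, 7.16 and 6.74 in WT and 6.14, 6.38 and 6.15 in KO pools. The groups were apart, but the difference of -0.64 (SE 0.14) did not pass (limma adjusted p = 0.0865). Tmem97 was the most positive, with 7.13, 7.31 and 7.24 in WT and 7.52, 7.72 and 7.81 in KO pools. Every KO pool was above, as in females, and the difference of 0.45 (SE 0.10) also missed the threshold (limma adjusted p = 0.0745). With all 24 arrays fitted together, 2 of the 29 genes passed.

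The KO effect was more positive in female than in male liver for 26 of 29 genes, and for 21 of them it was positive in females and negative in males. The test of the difference itself, sex by genotype, was passed by 5 genes. All 5 were in the direction of a larger effect in females, against 0.0495% of all genes in that direction. At an unadjusted p under 0.05 in limma, 19 of 29 were more positive in females and 0 less, against 458 and 412 of all 18193 genes. The median over the 29 was 0.89 against -0.011 over all genes. The genes that passed were Msmo1 (1.61, SE 0.23, limma adjusted p = 0.0219), Mvk (1.00, SE 0.15, adjusted p = 0.0367), Hmgcs1 (1.91, SE 0.30, adjusted p = 0.0408), Idi1 (1.58, SE 0.25, adjusted p = 0.0408) and Fdft1 (1.38, SE 0.22, adjusted p = 0.0417).

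For Cyp51, Dhcr7, Nsdhl, Pmvk and Sqle, the difference between the sexes was 1.37, 1.17, 1.14, 1.17 and 1.06, and did not pass (limma adjusted p from 0.263 to 0.619). Tmem97, which passed in females and not in males, had a difference between the sexes of 0.35 (95% interval 0.05 to 0.65, limma adjusted p = 0.994). Macrophage and Kupffer markers had a positive difference between the sexes in 8 of 8 (median 0.24) and 0 passed in limma, with 0 at an unadjusted p under 0.05, and their part was not tested. The number of sterol genes that passed rested on single pools. It was 0 without pool 2, 3, 4, 6, 7, 8 or 11, 1 without pool 10, 2 without pool 1 and 9 without pool 12. It was also 1 after a renewed quantile normalization and 1 with the mean of all probe sets, while the median stayed between 0.66 and 1.03 over all 20 alternatives.

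Set against each other directly, the sexes differed in few of these genes between WT livers and in many between KO livers. Between WT females and WT males, 2 of 29 genes passed, against 1.76% of all genes in either direction, and the median difference was -0.11. Msmo1 was lower in females, with 8.32, 8.20 and 8.67 against 8.92, 9.43 and 9.02 (-0.73, SE 0.16, limma adjusted p = 0.0344). Npc2 was higher in females, with 7.47, 7.50 and 7.37 against 6.89, 7.12 and 7.11 (0.41, SE 0.09, limma adjusted p = 0.0431). Neither group pair overlapped. Msmo1 passed in 10 of 15 alternative settings and was lost without pool 2, 3, 7 or 8. Npc2 passed in 4 of 15 and was lost without pool 1, 2, 3, 7, 8 or 9.

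Between KO females and KO males, 14 of 29 genes were higher in females and 0 lower, against 1.15% of all genes higher, and in 20 genes all 3 female pools lay above all 3 male pools, against 7.11% of all genes. This comparison shares its KO arrays with the comparisons above and is no separate evidence. Hmgcs1 was 4.62-fold higher in KO females, with 10.66, 10.55 and 10.41 against 8.02, 8.76 and 8.21 (2.21, SE 0.21, limma adjusted p = 6.04e-05). The other 13 were Mvk, Pmvk, Idi1, Fdft1, Sqle, Cyp51, Msmo1, Nsdhl, Hsd17b7, Dhcr7, Scap, Npc2 and Tmem97, with differences from 0.39 for Scap to 1.26 for Idi1. Hsd17b7, which did not pass in either sex alone, was 1.88-fold higher in KO females, with 7.33, 7.22 and 6.86 against 6.14, 6.38 and 6.15 (0.91, SE 0.14, limma adjusted p = 0.00351). It was read from a probe set of a kind that can bind related transcripts. It did not pass without such probe sets or with the mean of all probe sets. Over 15 alternative settings its difference was 0.25 to 1.05, and its highest adjusted p in limma was 0.656. The count was 7 without male pool 4 and 8 without female pool 11. The macrophage and Kupffer markers had positive differences too, in 8 of 8, with a median of 0.53 beside 0.48 for the sterol genes, and 4 of the 8 had all female pools above all male pools. None passed in limma, and 3 were higher at an unadjusted p under 0.05 in limma, against 986 of all 18193 genes. Their mean level was 5.05 to 5.30 in KO female and 4.60 to 4.99 in KO male pools, with no overlap. Of 3 erythroid markers, Alas2, the heme synthesis enzyme of red cell precursors, was lower in KO females with a log2 difference of -3.71 (limma adjusted p = 2.64e-05), and in WT females with -2.69 (limma adjusted p = 0.000475). The others, Hba-a1 and Slc4a1, had positive differences of at most 0.05 between WT females and WT males. They lay near the median intensity of liver arrays, at 2.17 to 2.49 and 2.33 to 2.71 over the liver pools. The part of either list in the result was not tested.

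**Figure D4:**
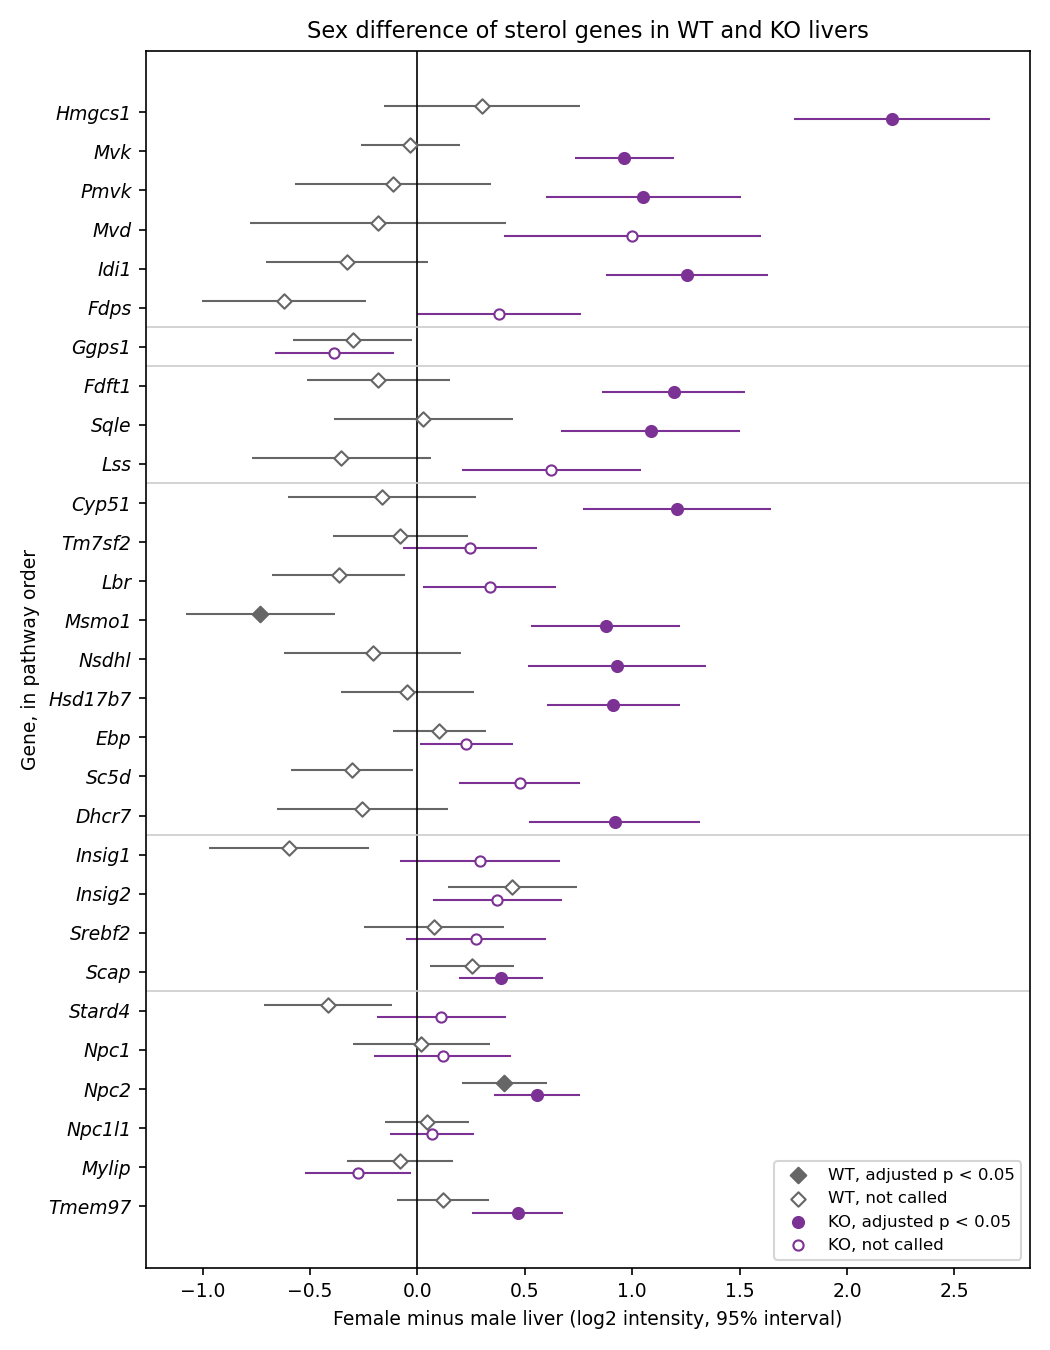
Female minus male difference (log2 intensity, x axis) of each sterol gene (y axis, pathway order) in liver. Diamonds are WT, circles are KO, bars are 95% intervals of the limma fit and filled symbols passed an adjusted p of 0.05. In WT 2 symbols are filled, 1 on each side of 0, and in KO 14 are filled, all right of 0.

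In heart no gene of the group passed in either sex. In females 0 of 29 passed, against 0.533% of all genes in either direction, and the median was -0.017. At an unadjusted p under 0.05 in limma, 0 were higher and 2 lower, against 568 and 679 of all 18193 genes. In males 0 of 29 passed, against 0.401% of all genes, and the median was 0.038. Here 1 was higher and 2 lower at an unadjusted p under 0.05 in limma, against 644 and 553 of all genes. The counts of genes that passed stayed at 0 with heart pools 4 and 10 left out, and the medians were then -0.020 and 0.063. The male count also stayed at 0 without pool 6. Of the 29 genes, 4 had a mean below the median intensity of heart arrays, 3.03, and 16 lay within 1 log2 unit of it, where a fall can hardly be measured.

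Hmgcs1 lay well above that median in heart and read 6.86, 6.66 and 6.89 in female WT and 6.83, 6.74 and 6.84 in female KO pools. The difference was 0.0039 (95% interval -0.19 to 0.20). In male hearts it read 6.85, 6.71 and 6.89 in WT and 6.96, 6.78 and 6.99 in KO pools, a difference of 0.09 (95% interval -0.11 to 0.28). Both intervals exclude the rise seen in female liver.

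Npc1 had the most negative difference in both hearts. In males it read 5.47, 5.23 and 5.34 in WT and 4.83, 4.96 and 4.21 in KO pools, all KO pools below (-0.68, SE 0.17, limma adjusted p = 0.154). The lowest of these readings, 4.21, came from pool 6, which stood apart by its proliferation markers. In females it read 4.98, 5.26 and 5.29 in WT and 4.86, 4.53 and 4.99 in KO pools, with an overlap (-0.38, SE 0.17, limma adjusted p = 0.678). Its differences in liver were -0.32 and -0.42, so the value was negative in all 4 comparisons and passed in none. Tmem97 in female heart was lower in every KO pool, with 3.73, 3.76 and 3.58 against 3.32, 3.52 and 3.34, near the array median (-0.30, SE 0.10, limma adjusted p = 0.475). Srebf2 had the most positive difference in male heart, with 4.93, 5.28 and 4.98 against 5.26, 5.56 and 5.58 (0.40, SE 0.12, limma adjusted p = 0.391).

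In heart no difference of the KO effect between the sexes passed, for 0 of 29 genes and 0% of all genes, with 1 of the 29 higher and 1 lower at an unadjusted p under 0.05 in limma and 340 and 480 of all genes. Between liver and heart of females, the KO effect differed for the same 9 genes that rose in liver, all more positive in liver, against 0.374% of all genes in that direction. This comparison contains the female liver arrays that gave those 9 calls, so the match of the genes is no separate evidence of their rise. Tmem97 had the lowest p (1.10, SE 0.15, limma adjusted p = 8.75e-05), Hmgcs1 the largest difference (1.57, SE 0.24, adjusted p = 0.000515), and Sqle lay nearest the threshold (0.96, SE 0.22, adjusted p = 0.0389). Sqle passed in 10 of 22 alternative settings, and its highest adjusted p was 0.134. It was lost without liver pool 7, 8, 10 or 11, without heart pool 8, 9, 10, 11 or 12, without heart pools 4 and 10 together, with the female arrays alone and after median centring. Cyp51 was lost with the female arrays alone (limma adjusted p = 0.0784) and Msmo1 with the mean of all probe sets (limma adjusted p = 0.0761), and the other 6 passed in all 22 settings. Macrophage and Kupffer markers were more positive in liver in 8 of 8 and 0 passed in limma, with 0 at an unadjusted p under 0.05, and their part was not tested. In males 0 of 29 passed between tissues, against 0.517% of all genes in either direction. At an unadjusted p under 0.05 in limma, 1 was higher and 4 lower, against 674 and 739 of all 18193 genes.

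Most genes had more than 1 probe set, 17 of 29, and these largely ran the same way in female liver. Of the 5 probe sets of Hmgcs1, 4 had differences from 1.33 to 1.58 in female liver, and the dimmest, with a mean of 2.12, had 0.13. Fdft1 had a pair of bright probe sets with 0.94 and 0.96 and a pair of dim ones with 0.12 each. Msmo1's second probe set, with a mean of 2.56 near the array median, differed by 0.0022. Opposite signs in female liver occurred in Ggps1 and Npc2, by 1 probe set each. In male liver Mvk, Fdps, Ggps1, Fdft1, Hsd17b7, Scap and Npc2 had probe sets of both signs. Mvd, Ggps1, Lss and Hsd17b7 were read from probe sets of a kind that can bind related transcripts.

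Neighbouring pathways were read from lists that shared no gene with the 30. Beside their counts in liver, 0.363% of all genes rose and 0.451% fell in females. In male liver 0.17% of all genes rose and 0.434% fell. Of 20 measured genes of fatty acid synthesis, the programme of the related factor SREBP1, 2 rose in female liver and 0 fell, with a median of 0.04. Acss2, the cytosolic acetyl-CoA synthetase, read 7.87, 7.90 and 7.74 in WT and 8.88, 9.01 and 8.23 in KO pools (0.87, SE 0.16, limma adjusted p = 0.0216). Slc25a1, the mitochondrial citrate carrier, rose by 0.50 (SE 0.08, limma adjusted p = 0.0118). In male liver 1 of 20 rose, Acacb, an acetyl-CoA carboxylase of mitochondria (1.24, SE 0.18, limma adjusted p = 0.00386), and 0 fell.

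Of 19 genes of sterol export, bile acid synthesis and LXR targets, 1 rose and 2 fell in female liver, with a median of -0.06. Abcg5 and Abcg8 form the transporter that secretes sterols into bile. Abcg8 read 6.35, 6.19 and 6.37 in female WT and 5.45, 5.25 and 4.26 in KO pools, all KO pools below, and fell 2.49-fold (-1.32, SE 0.26, limma adjusted p = 0.0325). Abcg5 read 7.18, 6.98 and 7.35 in WT and 6.72, 6.45 and 5.92 in KO pools and fell 1.75-fold (-0.81, SE 0.16, limma adjusted p = 0.0344). Pool 12, the lowest KO pool for most of the sterol genes, had the lowest level of both. In males Abcg5 also fell, from 7.27, 7.15 and 7.15 in WT to 6.44, 6.34 and 6.36 in KO pools (-0.81, SE 0.16, limma adjusted p = 0.0373). Female Abcg5 and Abcg8 were lost without any 1 of pools 7, 8, 9 and 11, and male Abcg5 without any 1 of its 6 pools. Acss2 was lost without pool 7, 8, 9, 10 or 11 and Slc25a1 without pool 7 or 11.

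The gene of this list that rose was Cyp7b1, an oxysterol hydroxylase with much higher levels in males, where 3 KO pools at 8.57, 8.64 and 8.75 lay above 3 WT pools at 7.34, 6.34 and 7.06 in females. In male liver 0 of the 19 rose and 3 fell, Abcg5, Lpcat3, a lysophospholipid acyltransferase (-0.63, SE 0.09, limma adjusted p = 0.00581), and Nceh1, a cholesteryl ester hydrolase (-1.13, SE 0.20, limma adjusted p = 0.0181), the last lost without pool 1, 2 or 5. Of 18 genes of isoprenoid branches and other reported SREBP2 targets, 1 rose in female liver and 0 fell, with a median of 0.10. It was Rdh11, a retinol dehydrogenase, with 4.75, 4.72 and 5.25 in WT and 5.94, 6.26 and 5.36 in KO pools (0.95, SE 0.20, limma adjusted p = 0.0477). This call was lost without pool 7, 8, 10 or 11. In male liver 0 of the 18 passed, with 1 higher and 2 lower at an unadjusted p under 0.05 in limma, against 769 and 822 of all 18193 genes.

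In the hearts the genes of these lists that passed all fell, and falls outnumbered rises among all genes too. Of all genes, 22 rose and 75 fell in female heart (0.121% and 0.412%). In male heart 15 rose and 58 fell (0.0824% and 0.319%). Of the 20 genes of fatty acid synthesis, 2 fell in each sex. Of the 19 of sterol export and LXR targets, 2 fell in females and 1 in males. Of the 18 of isoprenoid branches, 1 fell in each sex. Me1, the cytosolic malic enzyme, Gpam, a glycerol phosphate acyltransferase, Nceh1 and Mlycd, the malonyl-CoA decarboxylase, fell in both sexes, by 0.52 to 0.93 in females and by 0.60 to 0.94 in males on the log2 scale, with limma adjusted p from 7.27e-05 to 0.00837. Mlycd in female heart was lost without pool 8 or 11. Nceh1 in female heart was lost with all 24 arrays fitted together (limma adjusted p = 0.251). Lpcat3 fell in female heart too (-0.56, SE 0.10, limma adjusted p = 0.0143), and this was lost without pool 7, 9, 11 or 12.

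**Figure D5:**
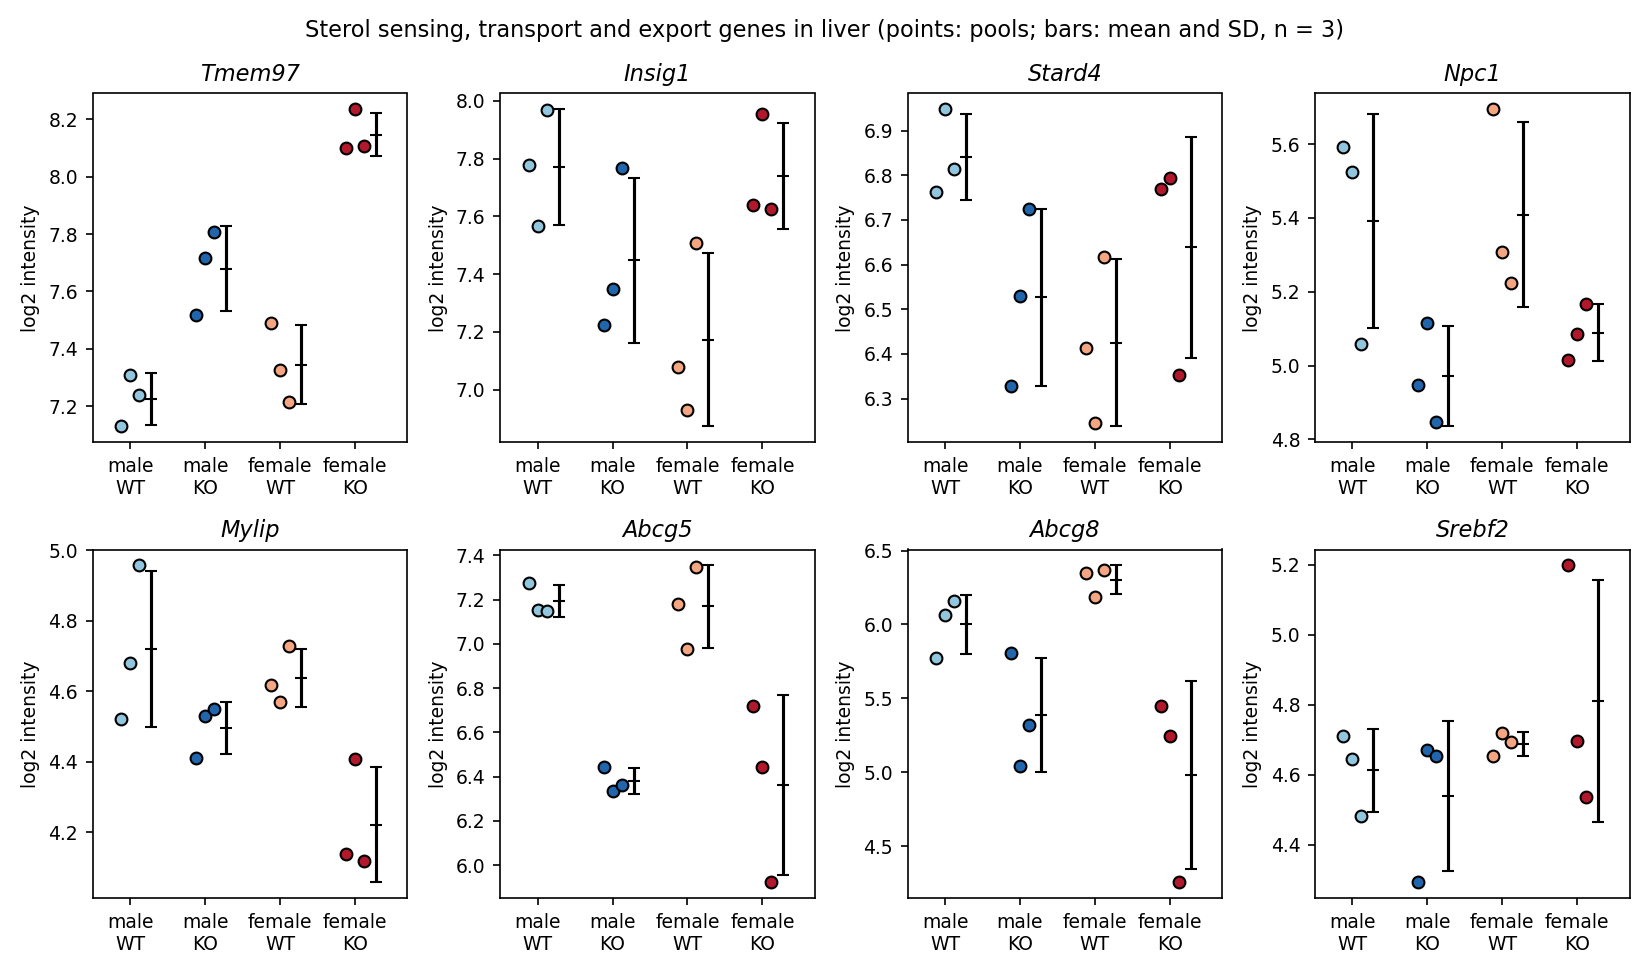
Log2 intensity (y axis) of sterol sensing, transport and export genes in each liver pool, grouped by sex and genotype (x axis). Points are pools, bars are the mean and SD of 3 pools, and y axes differ between panels and do not start at 0. Tmem97 is higher in KO pools of both sexes, Abcg5 is lower in KO pools of both sexes, and Srebf2 overlaps between WT and KO in both.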

How the data were processed

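RNA pooled from 4 mice was measured on each of 24 arrays, 3 per group. The deposited values are log2 intensities that the authors made with RMA, per the submitters' processing notes; its version is not given in the sources used here. Liver and heart arrays have different value distributions, so levels were not compared across tissues. Of 45101 probe sets, 64 were controls, 34945 had 1 gene, 932 several and 9160 none in the platform annotation. The brightest single-gene probe set over all arrays stood for each of 18193 genes, with symbols updated through Entrez IDs.

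All tests are two-sided moderated tests of limma (version 3.58.1, R 4.3.3) on group means, with Benjamini-Hochberg adjustment over all genes and a threshold of 0.05. The 12 arrays of a tissue were fitted together, and all 24 for tissue-by-genotype tests, in 10 comparisons in all. Pools are the replicates, and their small number limits precision. No filter on dim genes was applied. The named genes are the 30, Ppara, some cell type markers and genes of the neighbouring lists. From each list the genes named are those that passed in a comparison with the largest differences. These members and lists were chosen with earlier results of these data known, and list counts and medians are descriptions. Promoters came from RefSeq windows on GRCm38.p6. Scripts were tested on simulated data. Alternatives were other sets of arrays in the fit, a trended robust variance, array weights, quantile normalization, median centring, brighter genes only, other probe set rules, heart pools 4 and 10 left out, leaving out single pools and a replicate block.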

Additional observations from a re-analysis of the deposited data

Results flagged for a closer look

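The KO effect in liver differed between the sexes, by a test of the difference itself (limma, adjusted over all genes), for 6 genes described above. It was more positive in females by 1.91 for Hmgcs1 (SE 0.30, adjusted p = 0.0408), 1.00 for Mvk (SE 0.15, adjusted p = 0.0367), 1.58 for Idi1 (SE 0.25, adjusted p = 0.0408), 1.38 for Fdft1 (SE 0.22, adjusted p = 0.0417), 1.61 for Msmo1 (SE 0.23, adjusted p = 0.0219) and 2.01 for Cyp7b1 (SE 0.30, adjusted p = 0.0367). Each of the 6 was lost when some single pools were left out, as described above and below.

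In females the KO effect differed between liver and heart, by the same kind of test over all 24 arrays, for 9 of the sterol genes. It was more positive in liver by 1.57 for Hmgcs1, 0.91 for Mvk, 1.27 for Idi1, 1.04 for Fdft1, 0.96 for Sqle, 1.17 for Cyp51, 1.19 for Msmo1, 1.14 for Nsdhl and 1.10 for Tmem97, with limma adjusted p from 8.75e-05 for Tmem97 to 0.0389 for Sqle. Sqle passed in 10 of 22 alternative settings, Cyp51 and Msmo1 in 21 each and the other 6 in all 22. Idi1, Sqle and Cyp51 lay below the median intensity of heart arrays, and Msmo1 and Tmem97 within 1 log2 unit above it, where a fall can hardly be measured.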

How the results depend on the processing

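Under the 15 to 22 alternatives of a comparison the median of the 29 genes kept its sign in 7 of 10 comparisons. The other 3 were near 0 and crossed it, from -0.024 to 0.0097 in female heart (main value -0.017), from -0.0098 to 0.072 in male heart (0.038) and from -0.10 to 0.025 for sex by genotype in heart (-0.040). In female liver 5 genes passed with the compared arrays alone and 14 with array weights, against 9. With each pool left out in turn the count was 6 to 12 and the median 0.4451 to 0.7325, the highest without WT pool 9. In male liver, against 0, 2 passed with all 24 arrays, 1 with a trended robust variance, 2 with array weights, 1 after quantile normalization and 1 with the mean of all probe sets. For sex by genotype in liver, against 5, 9 passed with all 24 arrays, 8 with array weights, 1 after quantile normalization and 1 with the mean of all probe sets, and 0 to 9 with single pools left out. Its median was 0.6615 with the mean of all probe sets and 0.7024 without probe sets that can bind related transcripts, against 0.89. Cyp7b1 was lost there without pool 1, 2, 3, 4, 5, 6, 10 or 11. The tissue-by-genotype median in females was 0.712 among brighter genes, against 0.50. Between WT livers of the sexes, against 2, 1 passed with the compared arrays alone, 5 with all 24 arrays, 1 after median centring, 1 among brighter genes and 0 with the mean of all probe sets, and 0 to 2 with single pools left out. Between KO livers 7 to 16 passed with single pools left out, against 14. The causes of these changes were not tested. Counts in the hearts and between tissues in males stayed at 0 in limma under all alternatives run. With 3 pools per group the design gives wide intervals, and genes near the array median limit what can be seen in heart.

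Liver and heart pools share numbers, so the pool number was also fitted as a replicate block. The same-numbered pools did not deviate together (correlations of deviations from -0.196 to 0.105 over 12 pairs, 1 over 0.1, and 4 of 12 pools closest to their own number). The labels do not say whether a liver and a heart pool of one number hold the same animals, and these correlations do not settle it. Livers and hearts of a sex and genotype came from the same 12 mice, so the arrays of both tissues may not be independent. With the block 9 of 29 genes passed between tissues in females (median 0.5029) and 0 in males (median -0.2701).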
